A study of Homo sapiens with 30 samples.

Results

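The genes described here are 9 of the 68608 in the deposited tables, taken as a fixed list because their products are surface antigens of neuroblastoma or make the ganglioside GD2. The list was set with earlier results of these data known. GPC2, CD276, L1CAM, NCAM1 and CD47 encode surface proteins. B4GALT6, ST3GAL5, ST8SIA1 and B4GALNT1 encode enzymes of the GD2 pathway. All 9 were found in each of the 3 tables, and each NESPR group was compared with the control group of its own line.

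RNA had been sequenced from 3 established lines, SK-N-BE(2)c, NGP and IMR32, of neuroblastoma, a tumour of the sympathetic nervous system. Every culture had received 100 nM of an antisense oligonucleotide (ASO) with a lipid carrier, so the controls had been transfected too. ASO1, ASO2 and ASO10 target NESPR, a long non-coding RNA, and NCA is the negative control ASO. IMR32 had ASO1, ASO2 and NCA with 4 libraries each, and NGP and SK-N-BE(2)c each had ASO2, ASO10 and NCA with 3 libraries each. Nothing in the labels says that replicates were separate cultures, so the p-values measure only the spread between these libraries, which may be technical. In NGP and SK-N-BE(2)c, control replicate 1 carries another spelling of the oligonucleotide's name (NCA) than replicates 2 and 3 (NCA2), and the labels do not settle whether it was another oligonucleotide. NESPR itself was not analysed here.

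Values are normalized counts: reads of a gene divided by 1 scaling factor per library, as deposited. The 30 libraries held 9393587 to 15060356 recovered reads, and mitochondrial genes took 4.25% to 8.41% of them. In NGP, 23722 to 23934 genes were detected in ASO10 libraries, against 21253 to 22030 in the other libraries of that line. In SK-N-BE(2)c the ranges were 21518 to 21815 and 19235 to 20327. Whether this bears on the comparisons with ASO10 was not tested. The adrenergic markers HAND2, GATA3, ISL1 and DBH were present in every line, while TH, the first enzyme of catecholamine synthesis, was at only 26.1 ± 3.90 (SD, n = 4) in IMR32 control cells. Of the mesenchymal markers, PRRX1 stood at 0 in the control libraries of IMR32 and SK-N-BE(2)c and at 2.50 ± 2.27 (SD, n = 3) in NGP, whereas VIM was abundant in all of them. NGP and SK-N-BE(2)c were scaled together and could be compared in level. IMR32 was scaled apart, so its levels were not set against theirs. These are bulk samples, in which fewer cells of a type and less RNA per cell cannot be told apart.

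GD2 is a sialic acid-bearing glycolipid of the neuroblastoma surface and the target of the antibody dinutuximab. Its synthesis runs in series: B4GALT6 adds galactose to glucosylceramide, ST3GAL5 adds the first sialic acid to give GM3, ST8SIA1 adds the second to give GD3, and B4GALNT1 adds N-acetylgalactosamine to give GD2. Glypican 2 (GPC2) is a heparan sulfate proteoglycan anchored to the membrane, CD276 is the checkpoint protein B7-H3, L1CAM and NCAM1 are adhesion molecules of the immunoglobulin superfamily, and CD47 binds SIRPA on phagocytes and restrains engulfment. RNA was measured, and neither GD2 nor any surface protein was.

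The RefSeq promoter table (GRCh38.p14) held entries for 6 of the 9 genes, matched by symbol. B4GALNT1, B4GALT6 and NCAM1 are named only. The 250 bases before the start are shown for CD47, the gene with the lowest values under ASO2 relative to control in NGP and SK-N-BE(2)c, for CD276, which was higher there, and for ST8SIA1 and GPC2, whose control levels were lower in SK-N-BE(2)c than in NGP by the widest margins. Capitals mark GGGCGG, the GC box, on either strand (CCGCCC when read on the shown strand), and neighbouring matches may overlap. CD276 has 2 annotated starts, of which the upstream one is shown.
CD47 (chr3:108091032-108091281, minus strand): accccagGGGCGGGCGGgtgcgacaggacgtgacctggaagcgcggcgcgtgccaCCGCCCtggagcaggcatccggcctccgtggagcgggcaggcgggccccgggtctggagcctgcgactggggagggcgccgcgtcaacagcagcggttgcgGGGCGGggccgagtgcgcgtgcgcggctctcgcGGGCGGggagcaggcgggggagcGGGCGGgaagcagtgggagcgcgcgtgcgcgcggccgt
CD276 (chr15:73684133-73684382, plus strand): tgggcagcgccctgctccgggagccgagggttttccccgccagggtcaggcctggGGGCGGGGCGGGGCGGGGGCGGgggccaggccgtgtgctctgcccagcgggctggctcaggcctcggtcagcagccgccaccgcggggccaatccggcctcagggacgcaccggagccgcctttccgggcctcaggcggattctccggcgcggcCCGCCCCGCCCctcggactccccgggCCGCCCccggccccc
ST8SIA1 (chr12:22334708-22334957, minus strand): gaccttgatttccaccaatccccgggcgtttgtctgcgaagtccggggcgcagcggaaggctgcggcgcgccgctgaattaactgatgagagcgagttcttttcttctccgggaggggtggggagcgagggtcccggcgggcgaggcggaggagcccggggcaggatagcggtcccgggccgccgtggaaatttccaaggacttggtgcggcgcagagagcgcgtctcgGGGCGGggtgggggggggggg
GPC2 (chr7:100177382-100177631, minus strand): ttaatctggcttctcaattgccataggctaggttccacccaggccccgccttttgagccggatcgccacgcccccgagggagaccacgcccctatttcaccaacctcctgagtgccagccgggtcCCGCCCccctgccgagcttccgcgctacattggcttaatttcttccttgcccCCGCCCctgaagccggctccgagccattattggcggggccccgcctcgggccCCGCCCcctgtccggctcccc
The CD47 window held 6 matches to GGGCGG, that of CD276 held 7, that of GPC2 held 3 and that of ST8SIA1 held 1. In all, 42.64% of 35116 promoter windows of this length held at least 1. GC content was 79.6% for CD47 and 80.8% for CD276, against a median of 58% over all windows. CACGTG, the E-box bound by MYC-family factors, was in none of the 12 windows of these 6 genes and in 6.345% of all windows. These are counts of letters in a window, and nothing about a factor follows from them.

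**Figure D1:**
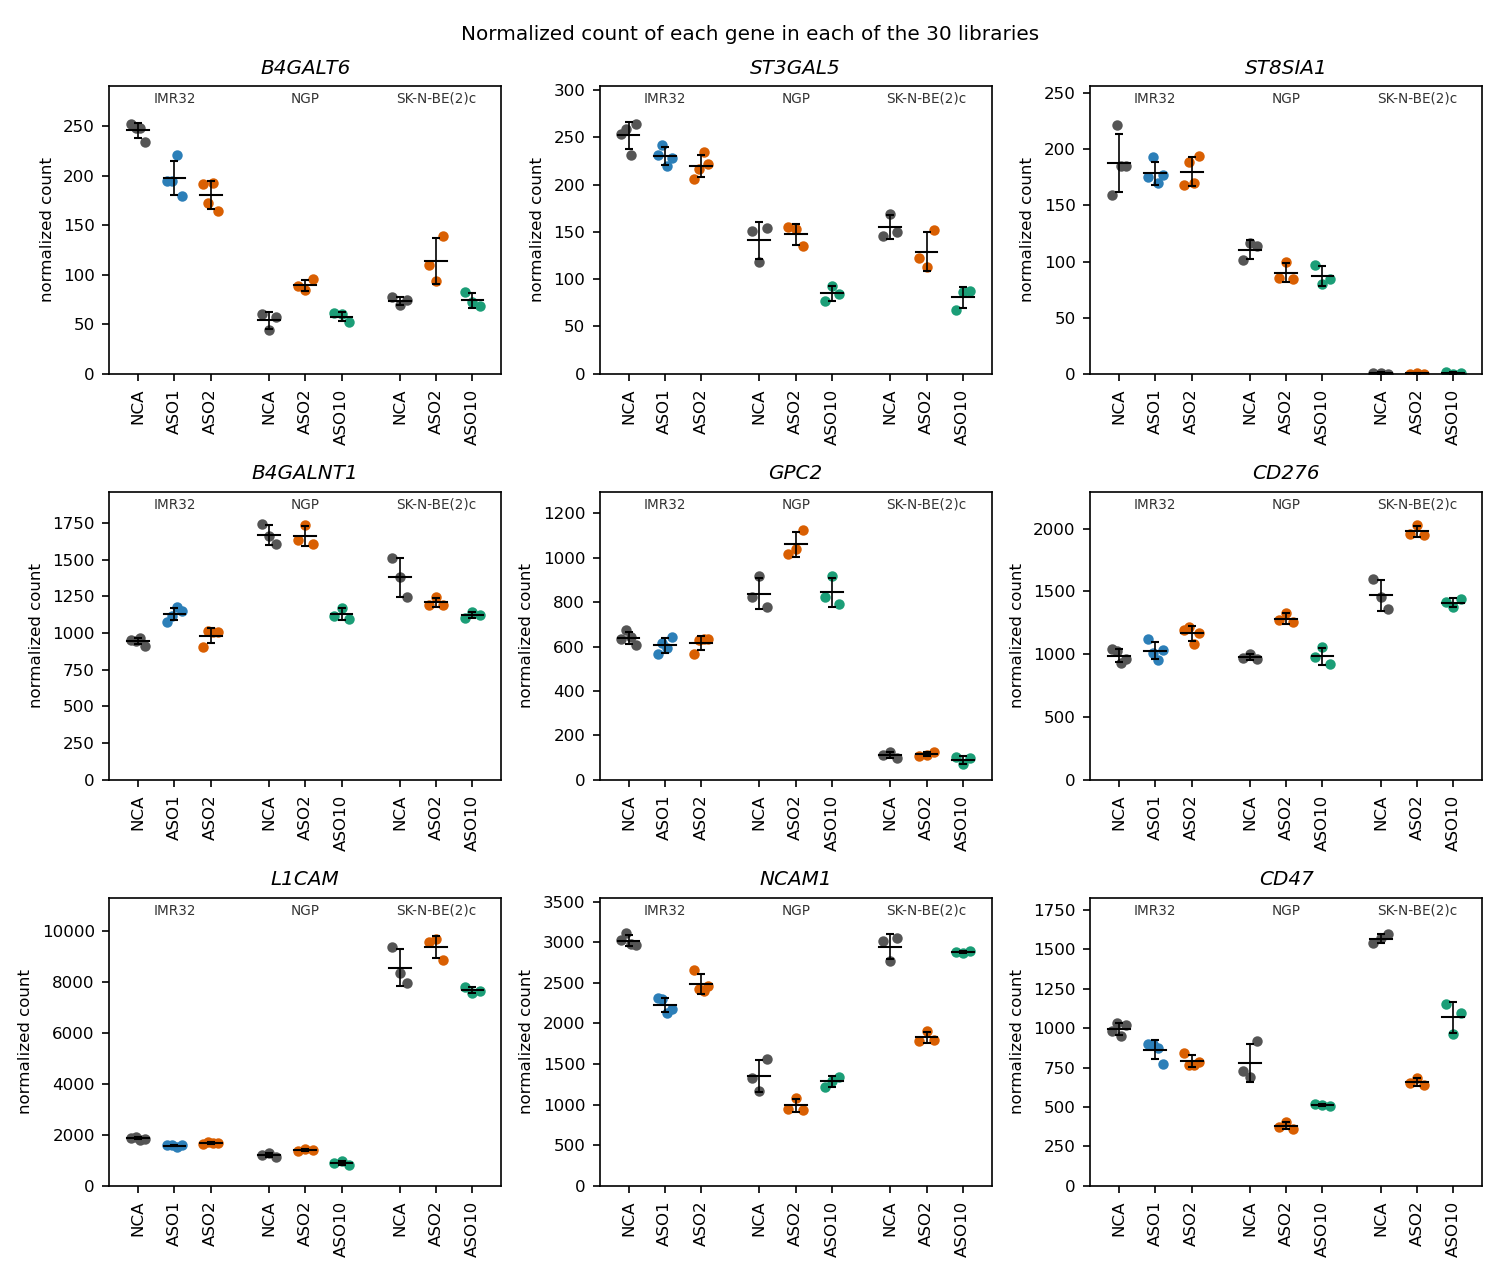
Normalized count (y axis, starting at 0) of each of the 9 genes in all 30 libraries, grouped along the x axis by ASO within each line. Points are libraries, horizontal bars are means and error bars are SD. IMR32 was scaled apart, so heights compare within it only. The CD47 points of every NESPR group lie below those of the controls of their line, and ST8SIA1 lies at 0 to 2 reads in every SK-N-BE(2)c library.

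In IMR32, 5 of the 9 genes were called with ASO1, at a Benjamini-Hochberg adjusted p under 0.05 in limma over all genes tested: B4GALNT1 was higher, and B4GALT6, L1CAM, NCAM1 and CD47 were lower. Of all 17309 genes, 28.0% were called, 13.6% higher and 14.4% lower. With ASO2, 6 were called in IMR32 (CD276 higher, and B4GALT6, ST3GAL5, L1CAM, NCAM1 and CD47 lower), on a background of 32.4% (17.6% higher and 14.8% lower). In NGP, ASO2 gave 4 higher (GPC2, B4GALT6, CD276 and L1CAM) and 2 lower (NCAM1 and CD47) where 58.7% of 14440 genes were called (30.6% higher and 28.1% lower). ASO10 in NGP gave 4 lower (B4GALNT1, ST3GAL5, L1CAM and CD47), with 54.4% of genes called (26.8% higher and 27.6% lower). In SK-N-BE(2)c, where ST8SIA1 was too low to test, ASO2 gave 3 of 8 higher (B4GALT6, CD276 and L1CAM) and 3 lower (B4GALNT1, NCAM1 and CD47), and the background was 67.0% of 13556 genes (33.6% higher and 33.4% lower). When every library was set to an equal total, the median of all genes there went from -0.02 to -0.15, and the split was 2 higher and 4 lower. ASO10 there gave 4 lower (B4GALNT1, ST3GAL5, L1CAM and CD47), with a background of 58.9% (27.8% higher and 31.1% lower). The share of called members was thus near the background in NGP and SK-N-BE(2)c, and above it in IMR32. Because the members were chosen with earlier results of these data known, a share above the background is not a result about them. The members' median log2 fold change was -0.13 and -0.15 with ASO1 and ASO2 in IMR32, 0.07 and -0.34 with ASO2 and ASO10 in NGP, and -0.07 and -0.22 in SK-N-BE(2)c, where the median over all genes lay between -0.03 and 0.01 in every comparison.

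**Figure D2:**
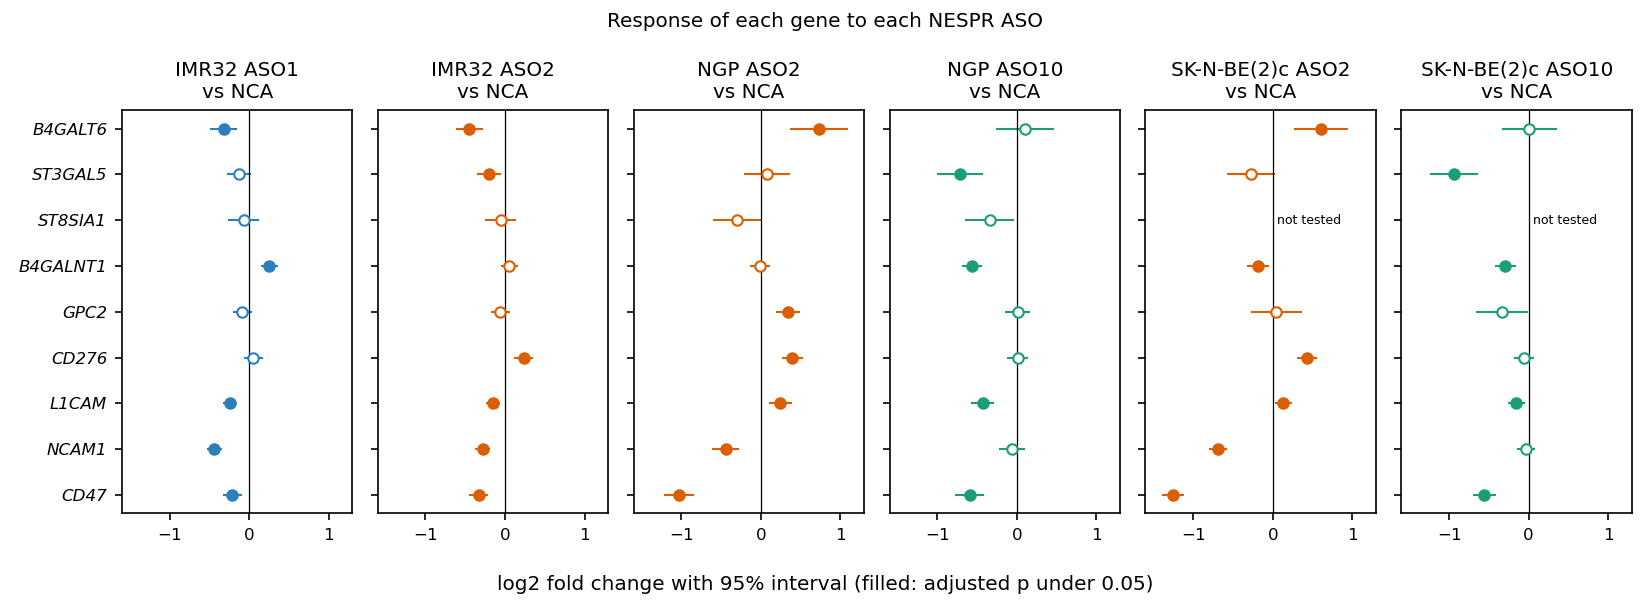
Log2 fold change against NCA (x axis) of each gene (y axis) in the 6 comparisons, with 95% intervals from limma. Filled points passed an adjusted p under 0.05. CD47 is left of 0 with a filled point in all 6 panels, while B4GALT6 is left of 0 in both IMR32 panels and right of it with ASO2 in the other lines.

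CD47 fell in all 6 comparisons, as did 2.92% of the 11594 genes tested in every line. In IMR32 control libraries its normalized count was 983, 1030.0, 950.0 and 1019.7. With ASO1 it was 903, 899.7, 874 and 774, and with ASO2 it was 846, 768, 764 and 787. No treated library reached the lowest control. The log2 fold change was -0.21 ± 0.057 (SE; adjusted p = 0.00835, limma) with ASO1 and -0.33 ± 0.057 (adjusted p = 0.00018) with ASO2, and the difference between those 2 ASOs did not pass (0.12, adjusted p = 0.134); without ASO1 replicate 4, the lowest of its group, it passed (0.17, adjusted p = 0.0327).

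The NGP controls held 731, 692 and 918 CD47 counts. With ASO2 the values were 373, 405 and 362, and with ASO10 they were 518, 515 and 506, so the 3 groups did not overlap. The log2 fold changes were -1.03 ± 0.090 (SE; adjusted p = 5.96e-10, limma) and -0.59 ± 0.090 (adjusted p = 4.83e-06). Control replicate 3 was the highest; leaving out each library in turn moved the ASO2 value between -1.11 and -0.90 and the ASO10 value between -0.67 and -0.47. In SK-N-BE(2)c, control values were 1538, 1572 and 1596, those with ASO2 were 652, 684 and 638, and those with ASO10 were 1155, 962 and 1093. ASO2 gave -1.25 ± 0.069 (SE; adjusted p = 5.11e-15) and ASO10 gave -0.56 ± 0.069 (adjusted p = 7.56e-08). CD47 was lower with ASO2 than with ASO10 in both lines, by a log2 difference of -0.43 ± 0.090 in NGP (adjusted p = 0.000207) and of -0.70 ± 0.069 in SK-N-BE(2)c (adjusted p = 7.1e-10).

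NCAM1, the neural cell adhesion molecule, fell with ASO1 and ASO2 in IMR32 and with ASO2 in NGP and SK-N-BE(2)c. IMR32 controls held 3020.3, 3111, 2973 and 2966 counts, against 2308, 2295, 2125 and 2174 with ASO1 and 2657, 2428, 2396 and 2455 with ASO2. Neither NESPR group overlapped the controls. The log2 fold changes were -0.44 ± 0.046 (SE; adjusted p = 5.02e-07, limma) with ASO1 and -0.28 ± 0.046 (adjusted p = 0.000113) with ASO2. In NGP the controls ranged widely, at 1321, 1167 and 1557, and ASO2 libraries lay at 951, 1081 and 934 (-0.44 ± 0.082, adjusted p = 5.64e-05). ASO10 libraries, at 1217, 1294 and 1344, lay within the control range (-0.06, 95% interval -0.23 to 0.11). The SK-N-BE(2)c controls were at 3012, 2769 and 3056 and ASO2 libraries at 1781, 1905 and 1792 (-0.69 ± 0.055, adjusted p = 9.2e-12). The ASO10 libraries, at 2881, 2871 and 2885, again lay within the controls (-0.03, 95% interval -0.14 to 0.08). ASO2 and ASO10 themselves differed in both lines, by -0.38 in NGP (adjusted p = 0.000298) and -0.66 in SK-N-BE(2)c (adjusted p = 2.47e-11).

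CD276 was higher with ASO2 in all 3 lines. In NGP it stood at 967, 1002 and 963 in controls, at 1269, 1330.0 and 1254 with ASO2 and at 975.1, 1057 and 922 with ASO10. Every ASO2 library exceeded every other NGP library. ASO2 gave a log2 fold change of 0.39 ± 0.065 (SE; adjusted p = 1.25e-05, limma), and ASO10 gave 0.01, with a 95% interval from -0.12 to 0.14. For SK-N-BE(2)c the controls were at 1601, 1453 and 1356, ASO2 libraries at 1960.2, 2028 and 1946 (0.43 ± 0.062, adjusted p = 5.8e-07) and ASO10 libraries at 1414, 1374 and 1441 (-0.06, 95% interval -0.18 to 0.07). The difference of ASO2 from ASO10 passed in both lines (0.38, adjusted p = 1.61e-05 in NGP, and 0.49, adjusted p = 7.6e-08 in SK-N-BE(2)c). In IMR32 the values went with ASO2 from 1042, 1023, 930.2 and 963 to 1191, 1215, 1085 and 1169 (0.24 ± 0.057, adjusted p = 0.00343), and ASO1 libraries, at 1122, 1006, 954 and 1033, overlapped the controls (0.06, adjusted p = 0.513). The test between ASO1 and ASO2 passed (-0.18, adjusted p = 0.0273), but after rescaling, with no filter (adjusted p = 0.0558) and in 6 of the 8 fits that left out 1 library it did not, the last with values from -0.14 without ASO1 replicate 3 to -0.18 without ASO1 replicate 4.

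L1CAM changed in all 6 comparisons, in both directions. IMR32 controls held 1894, 1921, 1815 and 1838 counts, ASO1 libraries 1583, 1597, 1533 and 1599.9, and ASO2 libraries 1624, 1715, 1698 and 1684. Both groups lay below the controls, by -0.24 ± 0.042 (SE; adjusted p = 0.000204, limma) and -0.15 ± 0.042 (adjusted p = 0.00895) on the log2 scale. In NGP, values of 1192, 1271 and 1122 in controls stood between those with ASO2 (1379.5, 1441 and 1417) and those with ASO10 (903, 965 and 799.8), with log2 fold changes of 0.24 (adjusted p = 0.00455) and -0.43 (adjusted p = 1.31e-05). L1CAM values in SK-N-BE(2)c were above those of every NGP library, at 9364, 8350.0 and 7969 in controls, 9589.9, 9678 and 8873 with ASO2 and 7805, 7570.3 and 7664 with ASO10. There the log2 fold change was 0.13 ± 0.054 (adjusted p = 0.0309) with ASO2, whose libraries overlapped the controls, and -0.15 ± 0.054 (adjusted p = 0.0167) with ASO10. Rescaling each library to the same total turned the ASO2 value to -0.0033, and the rise was lost without ASO2 replicate 1 (0.12, adjusted p = 0.0979), ASO2 replicate 2 (0.11, adjusted p = 0.133), control replicate 2 (0.12, adjusted p = 0.107) or control replicate 3 (0.08, adjusted p = 0.175). With no filter the ASO2 call was lost too (adjusted p = 0.0831, limma). The ASO10 call was lost without ASO10 replicate 3 (-0.15, adjusted p = 0.0517) or control replicate 1 (-0.09, adjusted p = 0.162), and in DESeq2 (-0.12, adjusted p = 0.0688). The difference of ASO2 from ASO10 in SK-N-BE(2)c was 0.29 ± 0.054 (adjusted p = 3.64e-05), and in NGP it was 0.67 ± 0.070 (adjusted p = 9.74e-09).

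GPC2 rose in 1 of 6 comparisons, with ASO2 in NGP. There the controls were at 822, 917 and 777, ASO2 libraries at 1017, 1039.7 and 1126, and ASO10 libraries at 825, 918 and 789.9. The ASO2 group lay above all others (0.34 ± 0.075 SE, adjusted p = 0.000398, limma), and the ASO10 group spread over the control range (0.01, 95% interval -0.14 to 0.16). In IMR32, GPC2 lay between 567 and 675 in all 12 libraries, with log2 fold changes of -0.08 (adjusted p = 0.311) and -0.06 (adjusted p = 0.485). In SK-N-BE(2)c the normalized counts were far lower than in NGP: 109.9, 125 and 100.2 in controls, 107, 113 and 125 with ASO2 and 101.4, 69.6 and 96.4 with ASO10. ASO2 differed from ASO10 in that line by 0.38 ± 0.16 (adjusted p = 0.0352), a call lost without ASO10 replicate 2, the lowest library (0.21, adjusted p = 0.247), without ASO2 replicate 2 (0.39, adjusted p = 0.0644) or without ASO2 replicate 3 (0.32, adjusted p = 0.116). It was also lost in edgeR (0.33, adjusted p = 0.0668) and DESeq2 (0.33, adjusted p = 0.102), with no filter (adjusted p = 0.0588) and after rescaling to the same total (0.27, adjusted p = 0.136). Against control, ASO10 gave -0.34 (adjusted p = 0.0683), and without ASO10 replicate 1 it passed (-0.44, adjusted p = 0.0319).

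In the GD2 pathway, B4GALT6, which acts first of the 4 enzymes, went in opposite directions between IMR32 and the other lines. IMR32 controls were at 252, 248, 248 and 234 counts, ASO1 libraries at 194, 194, 221 and 179.6 and ASO2 libraries at 192, 172, 192 and 165. Every NESPR library was below every control (-0.32 ± 0.080 SE, adjusted p = 0.00507, limma, for ASO1 and -0.45 ± 0.080, adjusted p = 0.000292, for ASO2). In NGP, 60.1, 44.3 and 57.4 counts in controls compared with 88.2, 84.9 and 95.7 with ASO2 (0.73 ± 0.18, adjusted p = 0.000926). In SK-N-BE(2)c, 77.4, 69.6 and 74.2 in controls compared with 109, 93.4 and 139 with ASO2 (0.60 ± 0.17, adjusted p = 0.0023). ASO10 libraries lay at 61.1, 59.9 and 52.3 in NGP and at 82.8, 72.6 and 68.0 in SK-N-BE(2)c, overlapping the controls (0.11, adjusted p = 0.634, and 0.01, adjusted p = 0.963), and ASO2 exceeded ASO10 in both lines (0.63, adjusted p = 0.00358, and 0.59, adjusted p = 0.00276). The difference of the ASO2 response between IMR32 and the other lines was not tested.

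ST3GAL5, the GM3 synthase, fell with ASO10 in both lines that received it. In NGP it went from 151, 118 and 154 in controls to 77.4, 93.2 and 84.8 (-0.71 ± 0.14 SE, adjusted p = 0.000139, limma), and in SK-N-BE(2)c from 145, 169 and 150.3 to 67.9, 86.9 and 87.8 (-0.94 ± 0.15, adjusted p = 4.58e-06). The groups did not overlap in either line. ASO2 libraries lay at 155, 153 and 135 in NGP (0.07, adjusted p = 0.681) and at 123, 112 and 152 in SK-N-BE(2)c (-0.27, adjusted p = 0.11), and the latter passed without ASO2 replicate 3 (-0.40, adjusted p = 0.0342) or after rescaling to the same total (-0.41, adjusted p = 0.0179). ASO2 exceeded ASO10 by 0.79 (adjusted p = 3.55e-05) in NGP and by 0.67 (adjusted p = 0.000293) in SK-N-BE(2)c. In IMR32, the controls were at 254, 259, 232 and 265, ASO1 libraries at 232, 242, 219.9 and 228 (-0.13, adjusted p = 0.195) and ASO2 libraries at 206, 217, 234 and 222 (-0.20, adjusted p = 0.0379). The ASO2 call was lost in 6 of the 8 fits that left out 1 library (every one but those without ASO2 replicate 3 and control replicate 3), with adjusted p from 0.0609 without ASO2 replicate 4 to 0.11 without control replicate 4. That call was also lost in DESeq2 (-0.21, adjusted p = 0.0758) and in limma with no filter (adjusted p = 0.0843).

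ST8SIA1, the GD3 synthase, passed in none of the 4 comparisons in which it could be tested with limma. edgeR and DESeq2 gave the same outcome for these 4. IMR32 controls were at 159, 222, 186 and 186 counts, ASO1 libraries at 175, 193, 169.7 and 177 and ASO2 libraries at 168, 188, 169.8 and 194, with log2 fold changes of -0.06 (95% interval -0.26 to 0.13) and -0.05 (95% interval -0.25 to 0.14). In NGP, 101.1, 117 and 114 in controls stood above 85.4, 99.7 and 84.5 with ASO2 (-0.30, adjusted p = 0.0886) and 96.8, 79.9 and 84.8 with ASO10 (-0.34, adjusted p = 0.0544), with no overlap. Without ASO10 replicate 1 the latter passed (-0.42, adjusted p = 0.0412), and both passed after rescaling to the same total (-0.37, adjusted p = 0.0376, and -0.35, adjusted p = 0.0479). The 9 SK-N-BE(2)c libraries held 6 ST8SIA1 reads in all, at most 2 in any library, and 4 libraries held 0; a count of 0 allows up to 3 reads. No fold is given there.

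B4GALNT1, the last enzyme before GD2, fell with ASO10 in both SK-N-BE(2)c and NGP, fell with ASO2 in SK-N-BE(2)c and rose with ASO1 in IMR32. NGP controls were at 1740.0, 1663 and 1604 and ASO10 libraries at 1119, 1173 and 1096 (-0.56 ± 0.060 SE, adjusted p = 1.58e-08, limma). ASO2 libraries, at 1632, 1735 and 1605, lay among the controls (-0.01, 95% interval -0.13 to 0.11), and ASO2 exceeded ASO10 by 0.55 (adjusted p = 1.58e-08). Controls of SK-N-BE(2)c spread from 1508 (replicate 1) over 1378 to 1248, ASO10 libraries lay at 1105, 1144 and 1121 (-0.29 ± 0.066, adjusted p = 0.00043) and ASO2 libraries at 1192, 1246 and 1188 (-0.19 ± 0.066, adjusted p = 0.0151). Without control replicate 1 the ASO2 value was -0.12 (adjusted p = 0.133). ASO2 and ASO10 differed there by 0.11 (adjusted p = 0.164, 95% interval -0.03 to 0.24). In IMR32, 953, 942, 965 and 914 counts in controls compared with 1074, 1117, 1173 and 1146 with ASO1 (0.26 ± 0.050, adjusted p = 0.000634) and 903, 1011, 1003 and 1007 with ASO2 (0.05, adjusted p = 0.439). ASO1 exceeded ASO2 by 0.20 (adjusted p = 0.00633). On the opposite strand, SLC26A10P shares 26.7% of the exon bases of B4GALNT1 in GENCODE release 29, with means of 56.7, 342 and 58.1 counts for IMR32, NGP and SK-N-BE(2)c libraries, and whether strand was used in counting is not stated, so reads of the overlap cannot be told apart.

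Between the NESPR oligonucleotides of a line, 3 of the 9 genes differed in IMR32 (B4GALNT1, CD276 and NCAM1, where 21.9% of genes were called, 9.17% higher and 12.8% lower), 8 of 9 in NGP (all but ST8SIA1, background 58.6%, with 30.6% higher and 28.0% lower) and 7 of 8 in SK-N-BE(2)c (all but B4GALNT1, background 65.4%, with 34.6% higher and 30.8% lower). edgeR, DESeq2, no filter and rescaling to the same total each gave 6 of 8 there, without GPC2. The IMR32 split was 1 higher and 2 lower with ASO1 than with ASO2, and rescaling turned it to 2 higher and 0 lower: CD276 (-0.13, adjusted p = 0.0689) and NCAM1 (-0.10, adjusted p = 0.0606) no longer passed in limma and CD47 did (0.18, adjusted p = 0.0211). NCAM1 in IMR32 differed by -0.16 (adjusted p = 0.017), and that call was also lost without ASO1 replicate 3 (-0.14, adjusted p = 0.068), ASO1 replicate 4 (-0.15, adjusted p = 0.0502) or ASO2 replicate 1 (-0.13, adjusted p = 0.0542). In NGP and SK-N-BE(2)c, ASO2 gave the higher value for GPC2, ST3GAL5, B4GALT6, CD276 and L1CAM and the lower one for NCAM1 and CD47. Two-sided exact permutation tests of single genes cannot go below 0.0286 with 4 against 4 libraries or below 0.1 with 3 against 3. In IMR32 they gave 0.0286 for each gene whose groups did not overlap.

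The responses of NGP and SK-N-BE(2)c to the same oligonucleotide were compared with an interaction term over 14537 genes. For ASO2, 0 of the 8 genes above the floor differed between lines in limma (background 16.7%, with 8.79% higher and 7.95% lower), with 2 at an unadjusted p under 0.05, and edgeR and DESeq2 also called 0. Without NGP control replicate 3, NCAM1 and CD47 passed, at -0.36 (adjusted p = 0.00668) and -0.35 (adjusted p = 0.0144) in place of -0.25 and -0.22, so that their fall was larger in SK-N-BE(2)c; without SK-N-BE(2)c control replicate 3, B4GALNT1 passed (-0.24, adjusted p = 0.0422). For ASO10, 2 of 8 passed (background 16.9%, with 8.09% higher and 8.78% lower): the falls of B4GALNT1 (difference 0.27 ± 0.084 SE, adjusted p = 0.029) and L1CAM (0.27 ± 0.090, adjusted p = 0.0384) were smaller in SK-N-BE(2)c than in NGP. Neither held under most omissions of 1 library: 7 of 12 fits for B4GALNT1 and 9 of 12 for L1CAM did not pass, with values from 0.20 to 0.34 for each.

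The control cells of NGP and SK-N-BE(2)c differed at 7 of the 8 genes above the floor, where 77.0% of genes were called (37.3% higher and 39.8% lower in SK-N-BE(2)c). Relative to NGP, GPC2 was lower in SK-N-BE(2)c (log2 fold change -2.90 ± 0.12 SE, adjusted p = 7.16e-17, limma) and L1CAM was higher (2.84 ± 0.064, adjusted p = 5e-22). NCAM1 (1.14, adjusted p = 9.45e-13), CD47 (1.02, adjusted p = 4.99e-11), CD276 (0.59, adjusted p = 3.06e-09) and B4GALT6 (0.45, adjusted p = 0.0198) were also higher in SK-N-BE(2)c, and B4GALNT1 was lower (-0.28, adjusted p = 0.000175). The B4GALT6 call was lost without NGP control replicate 2 (0.32, adjusted p = 0.119) or SK-N-BE(2)c control replicate 1 (0.42, adjusted p = 0.0576). ST3GAL5 did not pass (0.14, 95% interval -0.17 to 0.46). ST8SIA1 had 354 reads over the 3 NGP controls and 2 over the 3 SK-N-BE(2)c controls, a depth-corrected ratio of 165 (exact 95% interval 45.3 to 1368, counting error only).

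**Figure D3:**
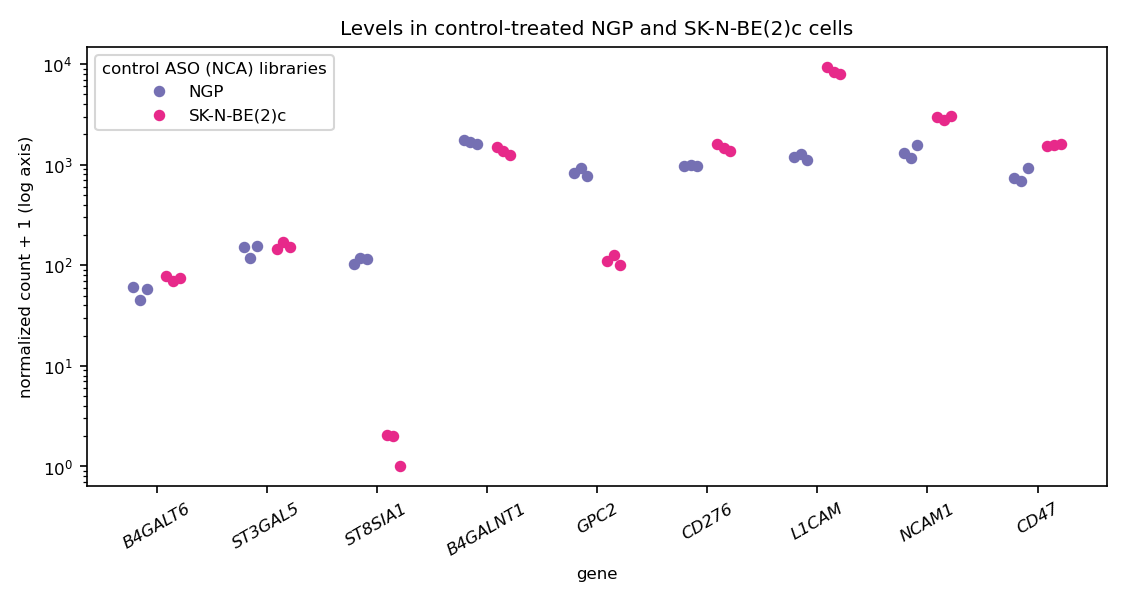
Normalized count + 1 (log y axis) of the 9 genes (x axis) in the 3 control libraries each of NGP and SK-N-BE(2)c. Each point is a library. GPC2 and ST8SIA1 are far lower, and L1CAM far higher, in SK-N-BE(2)c.

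Divided by the bases covered by all annotated exons of the gene, the levels of the surface antigens and B4GALNT1 lay above those of the 3 upstream enzymes in the controls of each line. This length pools the exons of all transcripts and can exceed that of any single transcript, so the orders depend on it. In SK-N-BE(2)c controls, GPC2 (112 ± 12.5 counts, SD, n = 3, 3828 bases) lay below ST3GAL5 (155 ± 12.6, n = 3, 16318 bases) before division. In NGP the order per kilobase was GPC2 (219 ± 18.6, SD, n = 3), B4GALNT1 (209 ± 8.52), CD276 (176 ± 3.90), L1CAM (164 ± 10.2), NCAM1 (106 ± 15.4), CD47 (94.9 ± 14.7), B4GALT6 (10.2 ± 1.59), ST3GAL5 (8.64 ± 1.23) and ST8SIA1 (7.64 ± 0.582). GPC2 and B4GALNT1, NCAM1 and CD47, and each neighbouring pair of the 3 upstream enzymes differed by less than the larger of their SDs. For SK-N-BE(2)c the order was L1CAM (1178 ± 99.2, n = 3), CD276 (265 ± 22.3), NCAM1 (231 ± 12.2), CD47 (191 ± 3.53), B4GALNT1 (172 ± 16.2), GPC2 (29.2 ± 3.26), B4GALT6 (13.9 ± 0.745), ST3GAL5 (9.50 ± 0.775) and ST8SIA1, with neighbours farther apart than the larger SD. The IMR32 order was L1CAM (257 ± 6.68, n = 4), NCAM1 (237 ± 5.24), CD276 (179 ± 9.35), GPC2 (167 ± 7.06), CD47 (121 ± 4.45), B4GALNT1 (118 ± 2.74), B4GALT6 (46.3 ± 1.49), ST3GAL5 (15.5 ± 0.882) and ST8SIA1 (13.0 ± 1.78), in which CD47 and B4GALNT1 differed by less than the SD of CD47.

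The genes around the GD2 pathway were read from lists chosen with earlier results of these data known. Their counts stand beside the shares of all genes called: 13.6% higher and 14.4% lower with ASO1 and 17.6% and 14.8% with ASO2 in IMR32, 30.6% and 28.1% with ASO2 and 26.8% and 27.6% with ASO10 in NGP, and 33.6% and 33.4% with ASO2 and 27.8% and 31.1% with ASO10 in SK-N-BE(2)c. Of the ceramide and glucosylceramide genes, ASO2 gave 5 of 10 higher and 3 lower in SK-N-BE(2)c and likewise in NGP, and after rescaling to the same total the SK-N-BE(2)c split was 3 and 4. ASO10 gave 4 higher and 2 lower in NGP and 3 and 3 in SK-N-BE(2)c, and in IMR32 the splits of 11 genes were 2 and 1 with ASO1 and 3 and 3 with ASO2. CERS2, a ceramide synthase for very long acyl chains, rose in all 6 comparisons, by 0.15 to 0.38 on the log2 scale, as did 3.05% of the 11594 genes. CERS6, a ceramide synthase for shorter chains, fell in 5, by -0.30 with ASO2 in IMR32 and by -0.73 to -1.19 in the other lines, and was at -0.15 (adjusted p = 0.0726, limma) with ASO1. B4GALT5, the other lactosylceramide synthase, rose with ASO2 in all 3 lines (0.24, 0.57 and 0.48). In that it matched B4GALT6 in NGP and SK-N-BE(2)c and ran against it in IMR32.

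Of the genes that branch from or extend GD2 and its precursors, 3 of 12 were lower and 1 higher with ASO1 in IMR32 (all genes 14.4% lower and 13.6% higher), and 6 and 1 with ASO2 (14.8% and 17.6%). NGP had 5 lower and 1 higher of 11 with ASO2 (28.1% and 30.6%) and 7 and 2 with ASO10 (27.6% and 26.8%). SK-N-BE(2)c had 6 and 1 of 10 with ASO2 (33.4% and 33.6%) and 7 and 1 with ASO10 (31.1% and 27.8%). Their medians ran from -0.09 to -0.66, and those of all genes from -0.03 to 0.0090. ST6GALNAC3, a sialyltransferase that acts on gangliosides, fell in all 6 comparisons, by -0.28 to -0.40 in IMR32, -0.94 and -1.21 in NGP and -1.79 and -1.45 in SK-N-BE(2)c. ST6GALNAC5 fell in 5 and was at 0.07 (adjusted p = 0.571, limma) with ASO2 in NGP. CASD1, which O-acetylates sialic acid, fell in NGP and SK-N-BE(2)c (-0.55 to -1.36). ST3GAL2 also fell there (-0.19 to -0.78). ST8SIA3, the most abundant of the list, was at 0.02 (adjusted p = 0.777) with ASO2 in NGP and -0.34 (adjusted p = 2.64e-05) with ASO10.

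Of 11 genes for lysosomal breakdown of gangliosides, 6 were higher and 2 lower with ASO2 in SK-N-BE(2)c (2 and 2 after rescaling to the same total), against 33.6% and 33.4% of all genes. With ASO10 there, 4 were higher and 4 lower (27.8% and 31.1% of all genes). NGP had 3 higher and 3 lower with ASO2 (30.6% and 28.1%) and 0 and 4 with ASO10 (26.8% and 27.6%). In IMR32, 4 of 10 were higher and 1 lower with ASO1 (13.6% and 14.4%), and 1 and 0 with ASO2 (17.6% and 14.8%; 1 and 2 after rescaling). PSAP, the precursor of the saposins, rose with ASO2 and fell with ASO10 in both NGP (0.43 and -0.60) and SK-N-BE(2)c (0.53 and -0.40). SMPD1, acid sphingomyelinase, rose in 5 comparisons (0.39 to 0.72) and was at -0.27 (adjusted p = 0.113, limma) with ASO10 in NGP. GNE, which starts sialic acid synthesis, passed in none of the 6 comparisons against NCA in limma, but was lower with ASO2 than with ASO10 in NGP (-0.19, adjusted p = 0.0361). Of the 5 sialic acid genes, 2 were higher and 0 lower with ASO1 in IMR32 (13.6% and 14.4% of all genes), and 3 and 0 after rescaling to the same total. With ASO2 there, 1 was higher and 0 lower (17.6% and 14.8%), and 0 and 0 after rescaling. NGP had 2 and 0 with ASO2 (30.6% and 28.1%), 2 and 1 after rescaling, and 1 and 1 with ASO10 (26.8% and 27.6%). SK-N-BE(2)c had 1 and 0 with ASO2 (33.6% and 33.4%), 1 and 1 after rescaling, and 0 and 2 with ASO10 (27.8% and 31.1%). Between ASO2 and ASO10, 4 of 5 were higher and 1 lower with ASO2 in NGP (30.6% and 28.0% of all genes). In SK-N-BE(2)c, 4 were higher and 0 lower (34.6% and 30.8%), and 3 and 0 after rescaling.

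NCAM1 carries polysialic acid added by ST8SIA2 and ST8SIA4. ST8SIA2 fell in 5 comparisons, by -0.60 and -0.21 in IMR32, -0.51 with ASO2 in NGP and -0.86 and -0.46 in SK-N-BE(2)c, and stood at -0.08 (adjusted p = 0.251, limma) with ASO10 in NGP. Of the relatives of L1CAM and NCAM1 in the immunoglobulin superfamily, 5 and 5 of 9 were lower with ASO1 and ASO2 in IMR32 (14.4% and 14.8% of all genes). With ASO2 and ASO10, 6 and 6 of 9 were lower in NGP (28.1% and 27.6%) and 5 and 3 of 7 in SK-N-BE(2)c (33.4% and 31.1%). The only one higher was ALCAM with ASO2 in IMR32 (0.22, adjusted p = 0.00515, limma), where 17.6% of all genes were higher. CNTN1 (-0.44 to -1.01) and NRCAM (-0.25 to -0.75) fell in all 6 comparisons. CHL1 (-0.43 to -1.32) and CNTN2 (-0.23 to -1.05) fell in the 4 comparisons of IMR32 and NGP and were too low to test in SK-N-BE(2)c. Among glypican and heparan sulfate genes, to which GPC2 belongs, 7 of 14 were lower and 1 higher with ASO1 in IMR32 (14.4% and 13.6% of all genes), and 3 and 1 with ASO2 (14.8% and 17.6%), where their median was -0.00077. NGP had 5 lower and 4 higher of 14 with ASO2 (28.1% and 30.6%) and 9 and 2 with ASO10 (27.6% and 26.8%). SK-N-BE(2)c had 7 lower and 1 higher of 13 with ASO2 (33.4% and 33.6%; 10 and 0 after rescaling) and 11 and 0 with ASO10 (31.1% and 27.8%). GPC6, another glypican, fell in all 6 (-0.45 to -1.25), and EXT2, a heparan sulfate polymerase, fell by -0.41 to -1.44 in SK-N-BE(2)c and NGP. The sulfotransferases HS2ST1 (-0.68 to -1.44) and HS6ST2 (-0.76 to -0.96) fell in those lines too. SULF2, a sulfatase that edits heparan sulfate, fell in 5 comparisons (-0.13 to -0.73) and was at -0.12 (adjusted p = 0.0902) with ASO10 in NGP.

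**Figure D4:**
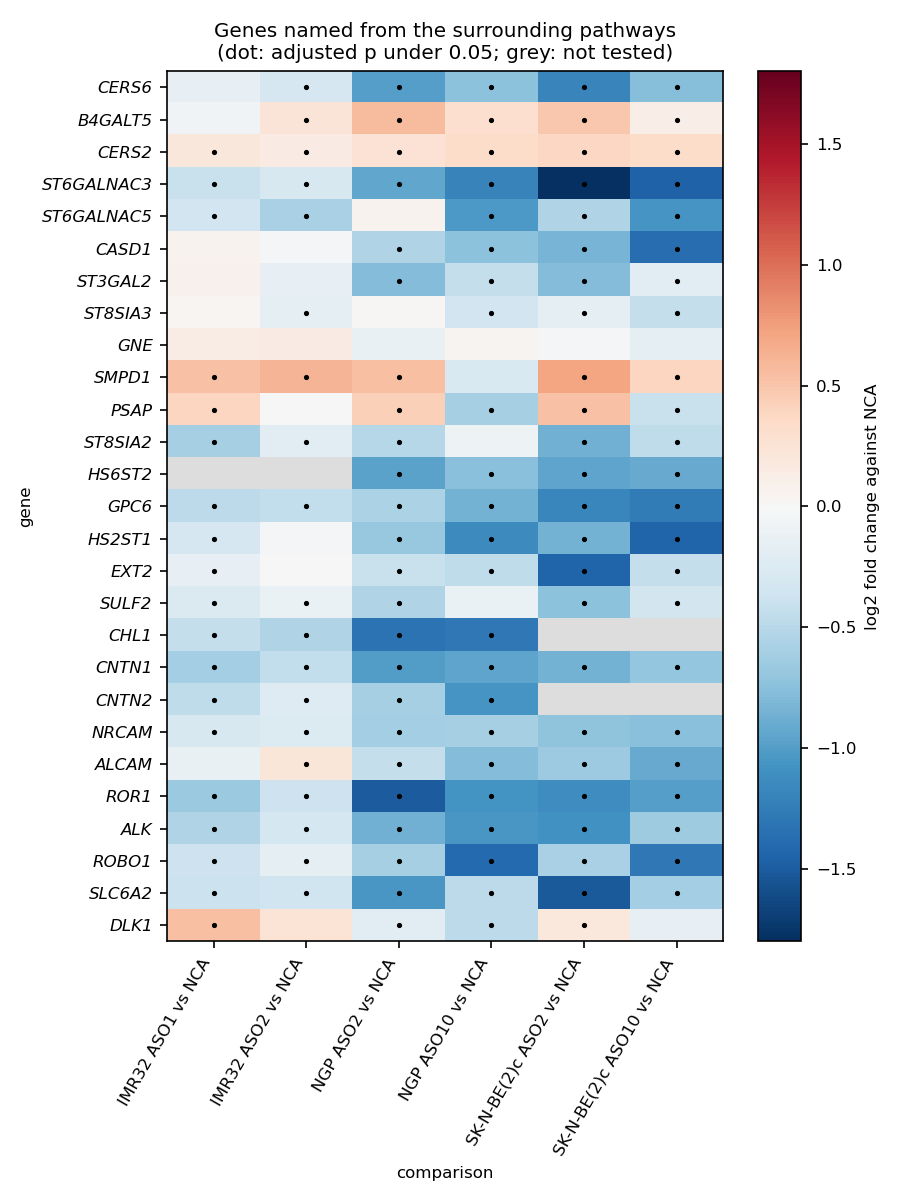
Log2 fold change against NCA (colour) of the genes named from the surrounding pathways (y axis) in the 6 comparisons (x axis). Dots mark adjusted p under 0.05 and grey cells were not tested. ST6GALNAC3, GPC6, CNTN1, NRCAM, ROR1, ALK, ROBO1 and SLC6A2 are blue with a dot in all 6 columns, and CERS2 is red with a dot in all 6.

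Beside CD47, the phagocytosis genes included LRP1, the receptor for calreticulin, which rose with ASO2 in all 3 lines (0.59, 1.75 and 0.69) and with ASO10 in both of its lines (1.15 and 0.42), and CALR, calreticulin, which rose with ASO1 and ASO2 in IMR32 (0.35 and 0.23) and with ASO2 in NGP (0.25) and SK-N-BE(2)c (0.18). Of this list, NGP had 2 higher and 1 lower of 4 tested with ASO2 (30.6% and 28.1% of all genes). With ASO10 it had 1 and 0 (26.8% and 27.6%). SK-N-BE(2)c had 2 and 1 of 3 with ASO2 (33.6% and 33.4%), and 1 and 1 after rescaling. With ASO10 it had 2 and 0 (27.8% and 31.1%), and 1 and 0 after rescaling. In IMR32, 1 of 5 was higher and 0 lower with ASO1 (13.6% and 14.4%), and 2 and 0 with ASO2 (17.6% and 14.8%). Of the B7 family beside CD276, 1 of 8 genes was high enough to test: NCR3LG1, which rose with ASO2 in NGP (0.45) and fell with ASO1 in IMR32 (-0.41). Of the 14 genes of MHC class I presentation, 6 of 10 tested were higher and 2 lower with ASO2 in SK-N-BE(2)c (33.6% and 33.4% of all genes; 4 and 2 after rescaling to the same total), and 2 and 1 with ASO10 (27.8% and 31.1%). NGP had 3 higher and 1 lower of 9 with ASO2 (30.6% and 28.1%) and 2 and 1 with ASO10 (26.8% and 27.6%). In IMR32, 0 of 6 were higher and 2 lower with ASO1 (13.6% and 14.4%; 1 and 2 after rescaling), and 3 and 1 with ASO2 (17.6% and 14.8%; 2 and 1 after rescaling). ERAP1, which trims peptides for MHC class I, fell in all 6 comparisons (-0.52 to -0.87), and CANX, a chaperone, rose with ASO2 in each line (0.26 for IMR32, 0.20 for NGP and 0.38 for SK-N-BE(2)c). Among other surface targets of neuroblastoma, 5 of 11 were lower and 1 higher with ASO1 in IMR32 (14.4% and 13.6% of all genes), and 6 and 2 with ASO2 (14.8% and 17.6%). NGP had 6 lower and 3 higher of 10 with ASO2 (28.1% and 30.6%) and 6 and 1 with ASO10 (27.6% and 26.8%). SK-N-BE(2)c had 6 lower and 3 higher of 10 with ASO2 (33.4% and 33.6%) and 7 and 1 with ASO10 (31.1% and 27.8%). ALK, ROR1, ROBO1 and the noradrenaline transporter SLC6A2 fell in all 6. ALK ran from -0.31 with ASO2 in IMR32 to -1.09 with ASO2 in SK-N-BE(2)c, and SLC6A2 from -0.36 to -1.51 in the same comparisons. DLK1, the most abundant of this list, rose in IMR32 given ASO1 (0.55) and in SK-N-BE(2)c given ASO2 (0.19) and fell in NGP (-0.20 and -0.47).

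Markers of cell state moved with some of these groups, and their part in the results was not tested. The summed level of the 5 adrenergic markers (HAND2, GATA3, ISL1, TH and DBH) was 24125 to 24766 in NGP controls, 21564 to 22291 with ASO2 and 17429 to 17746 with ASO10. All 5 fell with ASO10, where 27.6% of all genes were lower. The same sum in SK-N-BE(2)c was 13482 to 15005, 12981 to 14041 and 10698 to 11490, with 4 of 5 lower under ASO10 (31.1% of all genes). Under ASO2 the members of that sum went both ways: ISL1 (0.57), DBH (0.27) and GATA3 (0.18) rose and HAND2 (-0.35) and TH (-0.39) fell, with a median of 0.18 (1 higher and 2 lower after rescaling). In NGP, ASO2 gave 3 of 5 lower (28.1% of all genes) and GATA3 higher (0.13), the latter a call lost on rescaling. In IMR32 the sum was 19060 to 19665 in controls, 16921 to 18516 with ASO1 and 17964 to 18847 with ASO2, with 2 and 1 of 5 lower (14.4% and 14.8% of all genes). Of the 7 mesenchymal markers, VIM rose in every comparison but ASO1 in IMR32 (0.26 to 0.54), and the summed level of the 7 lay at 9738 to 9856 in NGP controls, 13443 to 14424 with ASO2 and 11129 to 11805 with ASO10. The matching ranges were 2735 to 2899, 3781 to 3849 and 3549 to 3793 in SK-N-BE(2)c, and 2463.0 to 2993 in controls, 2594 to 3188 with ASO1 and 3318 to 3506 with ASO2 in IMR32. These sums were mostly VIM. In NGP, 3 of 4 markers tested were higher and 1 lower with ASO2 (30.6% and 28.1% of all genes) and with ASO10 (26.8% and 27.6%). IMR32 had 1 of 5 higher and 0 lower with ASO1 (13.6% and 14.4%), and 2 and 0 with ASO2 (17.6% and 14.8%). SK-N-BE(2)c had 1 of 3 higher and 1 lower with ASO2 (33.6% and 33.4%), and 1 and 0 with ASO10 (27.8% and 31.1%). Some markers went another way than VIM. FN1 in NGP fell with ASO2 (-0.34) and ASO10 (-0.74), from 388 ± 15.2 (SD, n = 3) in controls to 307 ± 29.1 and 231 ± 7.62. CD44 in SK-N-BE(2)c fell with ASO2 (-1.13) and was at -0.45 (adjusted p = 0.086, limma) with ASO10. SNAI2 rose in IMR32 (0.98 and 1.07) and NGP (0.44 and 0.30) and was at 0.28 (adjusted p = 0.086) and -0.26 (adjusted p = 0.115) in SK-N-BE(2)c, where the median of the 3 markers tested was -0.26 with ASO10. PRRX1 was too low to test in every line, and YAP1 was at 0 in every NGP library.

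Over the 30 libraries, with the mean of each line removed, the genes most like CD47 among 11593 were IGF2BP3 (Pearson r = 0.98) and SYT14 (r = 0.98). DST (0.95) and NAV2 (0.94) were most like NCAM1, PTBP1 (0.95) and SPRING1 (0.95) most like CD276, and SCAMP5 (0.91) and CAPS (0.89) most like L1CAM. For the enzymes the nearest were N4BP2 (0.91) and ELK4 (0.91) for ST3GAL5, CLUH (0.91) and FGFR1 (0.90) for B4GALNT1, PDCD4 (0.85) and MIR137HG (0.83) for B4GALT6, and PCMTD1-DT (0.66) and CEP170B (0.64) for ST8SIA1. DGCR11 (0.80) and ACO1 (0.78) were nearest to GPC2. These are descriptions over libraries that share controls and scaling. The r values of ST8SIA1 include the 9 SK-N-BE(2)c libraries, with at most 2 reads each, so counting noise at the floor enters them.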

How the data were processed

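The deposited tables, 1 per cell line, hold a normalized signal: gene counts divided by 1 size factor per library, per the labels. The submitters' processing notes name FastQC 0.11.8, cutadapt 1.18, STAR 2.6.0, HTSeq 0.6.1 and DESeq2 1.42.0, with builds hg19 and GRCh37. The labels give 2 stranded library kits, 1 for total RNA and 1 for mRNA, without saying which library had which. This can change which RNAs are counted. Harvest time and the use of strand in counting are not given in the sources used here.

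The steps between low values gave each library's size factor, and 100% of values then came out whole within 0.1 read. The main test was limma 3.58.1 (R 4.3.3) on log2(value + 1) (group means in 1 model per line, mean-variance trend) on genes with a mean of at least 10, with Benjamini-Hochberg adjustment over all genes tested. The plan named limma for normalized values, with edgeR 4.0.16 and DESeq2 1.42.0 on recovered reads as alternatives. NGP and SK-N-BE(2)c were also fitted jointly. ST8SIA1, with under 3 reads in each SK-N-BE(2)c library, was given no fold change there. Exon lengths and overlaps came from GENCODE release 29, and matched by gene ID. Fold changes on this scale understate the change of low genes. Scripts were tested on simulated data. For IMR32, 174 entries without a gene ID were left out, with 0.172% of the values.

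The members and all gene lists were chosen with earlier results of these data known. Besides the members, the text names from each list up to 4 genes called with 1 sign in both comparisons of at least 2 lines, by the largest mean absolute log2 fold change, and the most abundant gene of the list; 2 lists hold markers of cell state. One gene of each of 2 lists is not reported here and was left out of the counts and sums. For likeness it names the 2 genes with the highest Pearson correlation. The alternatives were other pseudocounts (0.5 and 5), no filter or a filter at a mean of 50, rescaling to the same total, edgeR, DESeq2, a replicate block, only the 2 groups compared, and leaving out each library in turn.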

Additional observations from a re-analysis of the deposited data

Results flagged for a closer look

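In IMR32 with ASO2, replicate 1 stood apart from the other 3 libraries for GPC2 (normalized count 566.6, the others between 629 and 635) and for B4GALNT1 (902.5, the others between 1003 and 1011). These were 2 of 27 groups of 4 libraries examined, and chance alone sets about 1 in 20 such groups apart. Leaving that library out changed neither call against NCA.

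The response to ASO10 differed between lines in the interaction test of limma for B4GALNT1 (SK-N-BE(2)c minus NGP 0.273 on the log2 scale, adjusted p = 0.029) and for L1CAM (0.275, adjusted p = 0.0384). With each library left out in turn, the call held in 5 of 12 fits for B4GALNT1 and in 3 of 12 for L1CAM. Both calls were lost with no filter (adjusted p = 0.0674 and 0.0874, limma), and that of L1CAM after rescaling to the same total (adjusted p = 0.0517). In both lines and for both genes, ASO10 lowered the level in the comparison with NCA. For L1CAM in SK-N-BE(2)c that call was lost in DESeq2 (adjusted p = 0.0688).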

How the results depend on the processing

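Over 102 single values of the 9 genes and 1656 alternative values, 1540 kept their direction and their side of the threshold, 57 were no longer called, 14 were newly called and 45 changed sign. Of the 31 calls against NCA, 27 held under every alternative tried; the others were ST3GAL5 with ASO2 in IMR32, B4GALNT1 and L1CAM with ASO2 in SK-N-BE(2)c, and L1CAM with ASO10 in SK-N-BE(2)c.

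Rescaling each library to the same total moved the median log2 fold change of all genes with ASO2 in SK-N-BE(2)c from -0.02 to -0.15. It changed the sign of GPC2 (0.028) and ST8SIA1 (0.044) for ASO1 against ASO2 in IMR32, of GPC2 (-0.000464) and CD276 (-0.0013) with ASO10 in NGP, of ST8SIA1 (-0.015) for ASO2 against ASO10 in NGP, of GPC2 (-0.091) and L1CAM (-0.0033) with ASO2 and B4GALT6 (-0.015) with ASO10 in SK-N-BE(2)c, of B4GALNT1 (-0.0065) for ASO2 against ASO10 there, and of CD276 (-0.030) for ASO2 between lines. edgeR turned ST8SIA1 for ASO1 against ASO2 in IMR32 to 0.0020, and DESeq2 turned NCAM1 with ASO10 in SK-N-BE(2)c to 0.0066. The replicate numbers were not treated as pairs in the main fit: in none of 9 pairs of groups did every number's deviations correlate above 0.1. That rule cannot show that no replicates were paired. In IMR32, replicate 1 correlated at 0.33 (ASO1 with ASO2), 0.32 (ASO1 with NCA) and 0.26 (ASO2 with NCA). Replicate 3 correlated at 0.16, 0.12 and 0.11 in the same order. Whether these libraries shared a batch was not tested. With the replicate block, 5 genes in place of 3 differed between ASO1 and ASO2 in IMR32, L1CAM (-0.09, adjusted p = 0.0468, limma) and CD47 (0.12, adjusted p = 0.0379) being added, and no other call of a member changed. For ASO2 between lines, rescaling gave 1 called gene in place of 0; for ASO10 between lines it gave 1 in place of 2, and no filter gave 0. The cause was not tested. Leaving out each library in turn changed the sign of values that had not passed: IMR32 ASO1 against NCA (ST8SIA1 from -0.14 to 0.018), IMR32 ASO2 against NCA (ST8SIA1 from -0.13 to 0.028), IMR32 ASO1 against ASO2 (GPC2 from -0.066 to 0.0053, ST8SIA1 from -0.048 to 0.027), NGP ASO2 against NCA (B4GALNT1 from -0.044 to 0.020, ST3GAL5 from -0.050 to 0.14), NGP ASO10 against NCA (GPC2 from -0.052 to 0.076, B4GALT6 from -0.027 to 0.19, CD276 from -0.043 to 0.055, NCAM1 from -0.16 to 0.048), NGP ASO2 against ASO10 (ST8SIA1 from -0.032 to 0.12), SK-N-BE(2)c ASO2 against NCA (GPC2 from -0.029 to 0.13), SK-N-BE(2)c ASO10 against NCA (B4GALT6 from -0.067 to 0.073, CD276 from -0.11 to 0.0060), ASO2 effect SK-N-BE(2)c minus NGP (B4GALT6 from -0.28 to 0.0048, CD276 from -0.019 to 0.10), ASO10 effect SK-N-BE(2)c minus NGP (B4GALT6 from -0.18 to 0.037, NCAM1 from -0.080 to 0.13, CD47 from -0.085 to 0.12). The count of members called then ranged as follows: 0 to 2 for ASO10 effect SK-N-BE(2)c minus NGP, 0 to 2 for ASO2 effect SK-N-BE(2)c minus NGP, 1 to 3 for IMR32 ASO1 against ASO2, 5 to 5 for IMR32 ASO1 against NCA, 5 to 6 for IMR32 ASO2 against NCA, 4 to 5 for NGP ASO10 against NCA, 8 to 8 for NGP ASO2 against ASO10, 6 to 6 for NGP ASO2 against NCA, 3 to 5 for SK-N-BE(2)c ASO10 against NCA, 6 to 7 for SK-N-BE(2)c ASO2 against ASO10, 5 to 7 for SK-N-BE(2)c ASO2 against NCA, 6 to 7 for SK-N-BE(2)c NCA against NGP NCA.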
